A study of Mus musculus with 20 samples.

Results

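The E2F transcription factors and their retinoblastoma (Rb) family partners were followed as RNA in sorted Treg cells and CD4+Foxp3- T cells of WT and *Tet2/3* DKO mice. The 10 members, *E2f1* to *E2f8*, *Rb1* and *Rbl1*, were found by their symbols and are 10 of 16784 genes in the table for mesenteric lymph nodes (mLNs) and 10 of 16740 in the table for pooled spleen and peripheral lymph nodes (pLNs). The family was selected on values seen earlier in these same libraries, so its fold changes and p-values are a description and not independent evidence. All 10 members passed the filter on low counts in both tables, in which a gene needed a total of at least 1 count.

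E2F factors bind, mostly with a dimer partner (DP), to the promoters of genes for DNA replication and cell division. *E2f1*, *E2f2* and *E2f3* encode activators that are held by pRb until cyclin-dependent kinases phosphorylate pRb, *E2f4* and *E2f5* encode repressors that work with the pocket proteins p107 and p130, and *E2f6* encodes a repressor that binds no pocket protein. *E2f7* and *E2f8* encode atypical factors that need no DP partner and shut E2F targets down again late in S phase, and they are themselves E2F targets. In resting T cells this network keeps the cells out of the cycle, and it is released when the antigen receptor is engaged.

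All mice were C57BL/6 and 14 weeks old, and all of them, WT controls included, carried Foxp3Cre, a YFP-Cre fusion knocked into *Foxp3*. DKO mice (*Tet2/3* fl/fl Foxp3Cre) also carried floxed alleles of the methylcytosine dioxygenases *Tet2* and *Tet3*, which Cre removes only in cells that express or have expressed Foxp3. Treg cells were sorted as CD4+YFP+ and the other population as CD4+YFP-, which in DKO mice also holds cells that have lost Foxp3. There were 3 biological replicates of each of 4 groups from mLNs and 2 of each from spleen and pLNs, which the study calls biological replicates, and spleen and pLNs were pooled. Of the 2 DKO mice behind the spleen and pLN libraries, which were littermates, 1 had a more enlarged spleen, and the labels do not give its replicate number, so DKO means there join animals of unequal disease. Each tissue was normalized and tested by itself.

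Each library held between 9998478 and 15449158 reads counted on genes. *Foxp3* was at 152 to 419 CPM in Treg libraries and at 0.211 to 2.75 CPM in CD4+Foxp3- libraries. Gene-level counts of *Tet2* (7.69 to 12.8 CPM in the mLN Treg libraries of both genotypes) include exons outside the floxed segments and so do not check the deletion, and the same holds for *Tet3*. In the DKO Treg library of replicate 1 from spleen and pLNs, the longest 25% of genes stood 0.448 log2 above the shortest 25%, relative to the average of the 8 libraries, against -0.198 to 0.0161 in the other 7. Summed markers of B cells were lower in DKO than in WT Treg libraries (8.81 to 20.8 against 26.8 to 35.4 CPM in mLNs) although 4 of the 5 single markers had a positive log2 fold change, summed myeloid markers were higher (3.51 to 43.9 against 1.41 to 3.37 CPM) and NK cell markers were higher (74.8 to 162 against 9.54 to 11.4 CPM). Markers of CD8 cells were lower (2.95 to 3.94 against 16.0 to 20.8 CPM), plasma cell markers were at 564 CPM in DKO Treg replicate 2 and 647 CPM in DKO CD4+Foxp3- replicate 2 against 61.2 to 123 CPM in the other 10 mLN libraries, and neutrophil markers were at 0 in WT and at 0.222 to 3.21 CPM in DKO libraries of spleen and pLNs. Of the myeloid markers, *Csf1r* was at 0 to 0.216 CPM in all 12 mLN libraries and at 0.888 to 2.98 CPM in DKO Treg libraries of spleen and pLNs. Summed T cell markers spanned 2702.6 to 4343 CPM in mLNs. The part of these marker shifts in the results on E2F and Rb genes was not tested. In bulk RNA, more cells in cycle and more RNA of a gene in each cell cannot be told apart.

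Promoter sequence was read first for what it shares with the E2F targets, since E2F factors are known to regulate genes of their own family. RefSeq promoters (GRCm38.p6, 250 bases before to 50 after a start site) were given for 7 of the 10 members, without *E2f4*, *E2f5* and *Rb1*. An E2F motif (TTTCCCGC, TTTCGCGC, TTTGCCGC or TTTGGCGC, on either strand) was present in 4 of these 7 genes, *E2f2*, *E2f3*, *E2f7* and *Rbl1*, against 2.6% of the 27025 genes with a promoter in the same table. The stretches around these motifs are shown 5′ to 3′ on the strand of the gene, with the motif in capitals.
E2f2, chr4:136172294-136172323, plus strand: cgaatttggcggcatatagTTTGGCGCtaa
E2f3, chr13:29986056-29986085, minus strand: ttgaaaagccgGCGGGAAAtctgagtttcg
E2f7, chr10:110745230-110745259, plus strand: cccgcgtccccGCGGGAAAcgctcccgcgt
Rbl1, chr2:157204534-157204563, minus strand: aagaaggcgatTTTCGCGCgctttgtcgcg
The window given for E2f8 held a CHR motif (TTTGAA on either strand), the element through which DREAM and MuvB complexes are known to hold late cell-cycle genes, here in capitals on the strand of the gene.
E2f8, chr7:48881599-48881628, minus strand: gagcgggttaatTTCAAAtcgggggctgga
CHR letters are short and stood in 20.2% of all genes with a promoter. A match is a description of the letters and not a bound site.

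Among lists of known targets, 13 of 25 replication (G1/S) genes with a promoter held the E2F motif (52.0%), and 11 of 16 mitotic (G2/M) genes held CHR (68.8%). Of the 7 members with a promoter, 3 held CHR letters (*E2f2* at another start, *E2f3* and *E2f8*), so *E2f2* and *E2f3* held both motifs. The windows are on GRCm38.p6 and the gene positions used below on NCBIM37, so where a window lies relative to its gene was not checked. The motif counts describe only the windows given and not every start of a gene. Of the 4 members with the E2F motif, *E2f7* passed the test in DKO Treg cells of mLNs, and whether it differed from *E2f2*, *E2f3* and *Rbl1* was not tested.

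Levels between genes were compared per length, on the TPM that the authors deposited. In mLN WT Treg cells, *E2f4* had the highest level of the 10 members, 71.5 ± 5.16 TPM (SD, n = 3). *Rb1* followed with 45.3 ± 1.44 TPM and *Rbl1*, which encodes p107, with 28.7 ± 1.87 TPM. *E2f2* (19.0 ± 2.83 TPM) and *E2f6* (16.4 ± 0.184 TPM) came next and overlapped. Below them stood *E2f5* (7.82 ± 1.64 TPM), *E2f3* (4.01 ± 0.288 TPM) and *E2f1* (3.50 ± 0.169 TPM). The lowest levels were those of *E2f8* (2.55 ± 0.880 TPM), which overlapped *E2f1*, and *E2f7* (0.446 ± 0.106 TPM).

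The same order per length held a different middle in mLN DKO Treg cells. *E2f1* stood at 10.5 ± 0.263 TPM (SD, n = 3), level with *E2f5* (10.3 ± 1.18 TPM) and *E2f8* (9.80 ± 2.27 TPM), whose libraries overlapped. *E2f3* (5.82 ± 1.12 TPM) now stood below these 3, and *E2f7* remained last with 2.36 ± 0.427 TPM. *E2f4* (91.2 ± 4.79 TPM), *Rb1* (44.2 ± 4.52 TPM) and *Rbl1* (31.4 ± 1.66 TPM) kept the first places. In spleen and pLN WT Treg cells *E2f4* was again first (49.5 ± 0.815 TPM, n = 2) and *E2f7* last (0.176 ± 0.0147 TPM), and *E2f2* (24.2 ± 2.34 TPM) overlapped *Rbl1* (25.2 ± 1.16 TPM).

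Shares within a library do not depend on how libraries are scaled to each other. Of the summed TPM of the activators *E2f1*, *E2f2* and *E2f3*, *E2f1* made up 14.6%, 12.8% and 12.3% in the 3 mLN WT Treg libraries and 31.5%, 28.3% and 30.4% in the 3 DKO Treg libraries, without overlap. In mLN CD4+Foxp3- cells the *E2f1* share was 18.2% to 21.1% in WT and 16.9% to 20.6% in DKO, and these overlapped. *E2f2* was the main activator transcript in every mLN group, with means from 53.2% in DKO Treg cells to 71.6% in WT Treg cells. The atypical factors *E2f7* and *E2f8* together made up 1.77% to 2.85% of all E2f TPM in mLN WT Treg cells and 6.34% to 8.48% in DKO Treg cells, again without overlap. *E2f4* alone was over 50% of E2f TPM in each mLN library, between 53.2% and 68.5%.

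**Figure D1:**
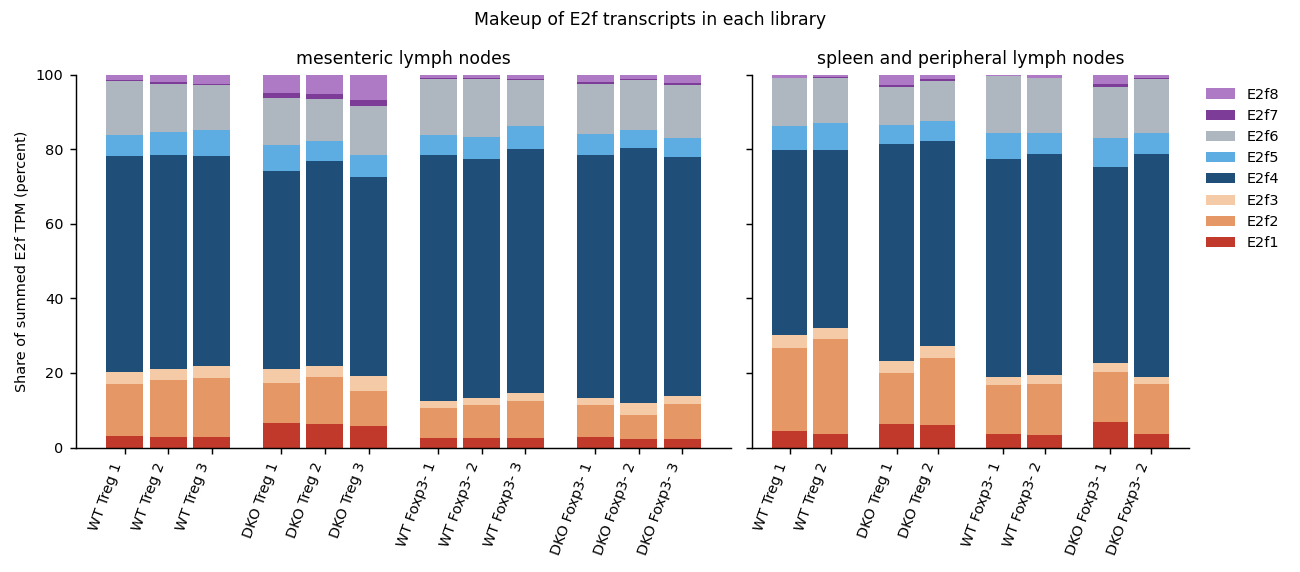
Share of each E2f gene in the summed E2f TPM of a library (percent, stacked to 100), 1 bar per library, with mLNs on the left and spleen and pLNs on the right. In mLN DKO Treg libraries the bands of E2f1 (bottom) and of E2f7 with E2f8 (top) are wider than in the other mLN groups, and E2f4 is the widest band in every library.

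The first comparison asked how loss of TET proteins in Treg cells went with the family's expression in mLNs. Levels are given from here on as CPM (reads of a gene relative to the library total after TMM scaling), and a gene was called where its fold change reached 1.5 and its p from edgeR's quasi-likelihood test, adjusted over all genes by Benjamini-Hochberg, did not exceed 0.05. *E2f1*, *E2f7* and *E2f8* were called higher in DKO than in WT Treg cells and none of the members was called lower, so 3 of 10 were called where 11.9% of all genes were called in either direction and 8.5% upwards. The median log2 fold change of the 10 members was 0.21, against 0.0045 over all genes tested. In 5 of the 10 members the genotypes did not overlap, against 40.5% of all genes and 51.7% of genes averaging at least 1 CPM.

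*E2f1*, the activator that pRb is best known to restrain, stood in WT Treg cells of mLNs at 6.00, 5.71 and 6.10 CPM and in the 3 DKO libraries at 15.6, 15.9 and 15.9 CPM. Every DKO library was thus more than 2 times as high as each WT library. The log2 fold change was 1.41 ± 0.13 (SE; adjusted p = 7.05e-05 with edgeR). These levels rest on 62 to 73 counts per WT and 189 to 221 per DKO library, and the replicates lay closer together than the counting error of 12.7% at 62 counts.

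*E2f2* was at 45.9, 51.9 and 58.3 CPM in WT and at 41.2, 53.2 and 41.6 CPM in DKO Treg cells of mLNs, and the groups overlapped. Its log2 fold change of -0.20 ± 0.15 did not pass the test (adjusted p = 0.383 with edgeR). *E2f3*, the remaining activator, was at 11.5, 11.4 and 12.4 CPM in WT and at 14.4, 12.7 and 18.3 CPM in DKO Treg cells. The groups did not overlap, yet the log2 fold change of 0.36 ± 0.21 did not pass the test (adjusted p = 0.251).

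The repressors *E2f4*, *E2f5* and *E2f6* had overlapping values in both genotypes of mLN Treg cells. *E2f4* was at 75.0 to 81.5 CPM in WT and at 80.6 to 93.8 CPM in DKO. *E2f5* was at 6.33 to 8.95 CPM in WT and at 7.91 to 9.24 CPM in DKO, and *E2f6* at 21.9 to 23.5 and 23.0 to 28.5 CPM. Their log2 fold changes were 0.18 ± 0.08 for *E2f4*, 0.23 ± 0.17 for *E2f5* and 0.16 ± 0.12 for *E2f6*, with adjusted p-values from edgeR of 0.158, 0.375 and 0.384.

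The atypical factors had the largest differences of the family. *E2f7* was at 1.07, 1.65 and 1.28 CPM in WT and at 5.42, 5.75 and 7.63 CPM in DKO Treg cells of mLNs. Each DKO library exceeded every WT library, and the log2 fold change was 2.22 ± 0.35 (adjusted p = 0.0011 with edgeR), on 13 to 20 counts per WT library. *E2f8* was at 3.53, 5.04 and 6.79 CPM in WT and at 14.1, 16.2 and 22.4 CPM in DKO Treg cells. The lowest DKO value was more than 2 times the highest WT value, and the log2 fold change was 1.78 ± 0.27 (adjusted p = 0.000863).

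*Rb1*, which encodes pRb, was at 121, 110 and 114 CPM in WT and at 104, 91.1 and 102 CPM in DKO Treg cells of mLNs. All DKO libraries lay below all WT libraries, but the log2 fold change of -0.22 ± 0.08 did not pass the test (adjusted p = 0.0647 with edgeR). *Rbl1* was at 82.5, 84.3 and 88.4 CPM in WT and at 82.3, 87.2 and 78.2 CPM in DKO, and its log2 fold change was -0.04 ± 0.09 (adjusted p = 0.786). *Rbl2*, which encodes p130 and is not one of the 10 members, was at 241, 261 and 238 CPM in WT and at 169, 173 and 165 CPM in DKO. Its log2 fold change was -0.55 ± 0.08 (adjusted p = 0.000574), short of the fold change of 1.5.

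The deposited TPM set DKO Treg libraries of mLNs 0.175 log2 higher relative to WT than CPM did, by the median gene and on the average of the replicates. On that scale *Rbl1* stood at 0.13 log2, *Rb1* and *E2f2* at -0.04 and -0.03 log2, and *E2f1*, *E2f7* and *E2f8* remained higher in DKO by 1.59, 2.40 and 1.94 log2.

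**Figure D2:**
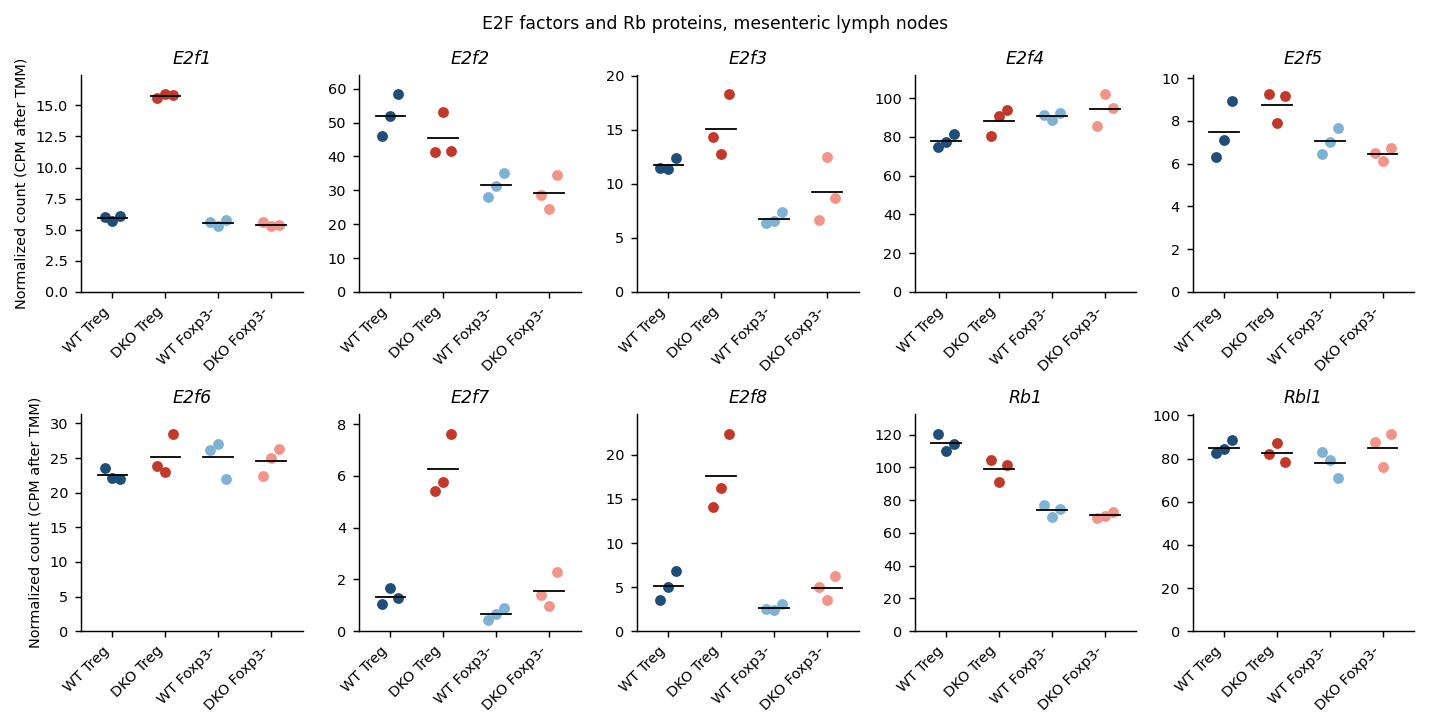
Normalized counts (CPM after TMM, linear axes from 0) of the 10 members in the 12 mLN libraries, 1 point per library and a line at the mean of the 3 replicates of each group. E2f1, E2f7 and E2f8 are highest in DKO Treg cells, with no overlap with any other group.

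CD4+Foxp3- T cells of the same mLNs served as the comparison without Foxp3 at the time of the sort. None of the 10 members was called between DKO and WT with edgeR, where 3.43% of all genes were called and 3.12% upwards. 2 members had an unadjusted p under 0.05, *E2f7* and *E2f8*, beside 3138 of 16784 genes, and DESeq2 called 0 members. *E2f1* was at 5.62, 5.33 and 5.79 CPM in WT and at 5.59, 5.28 and 5.39 CPM in DKO cells, with a log2 fold change of -0.04 ± 0.14 (adjusted p = 0.961), and on TPM it was 0.03 log2 higher in DKO. Its levels here were those of WT Treg cells, which differed from WT CD4+Foxp3- cells by 0.09 ± 0.14 log2 (adjusted p = 0.751).

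*E2f7* was at 0.426, 0.675 and 0.898 CPM in WT and at 1.42, 0.985 and 2.30 CPM in DKO CD4+Foxp3- cells of mLNs, on 5 to 10 counts per WT library. *E2f8* was at 2.55, 2.43 and 3.09 CPM in WT and at 4.97, 3.59 and 6.28 CPM in DKO. Neither gene overlapped between genotypes, as was the case for 20.9% of all genes. The log2 fold changes were 1.22 ± 0.39 for *E2f7* and 0.88 ± 0.29 for *E2f8* (adjusted p = 0.109 and 0.118 with edgeR). Neither adjusted p passed. Without DKO replicate 1 of these cells *E2f3* was called (adjusted p = 0.048 with edgeR), in a fit that called 1453 of all genes against 575 with all libraries. With the replicate block *E2f8* was called (adjusted p = 0.0445 with edgeR), where 563 of all genes were called.

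The remaining members had overlapping genotypes in mLN CD4+Foxp3- cells. *E2f3* was at 6.38 to 7.38 CPM in WT and at 6.65 to 12.5 CPM in DKO, with a log2 fold change of 0.46 ± 0.21 (adjusted p = 0.272 with edgeR). *E2f2* spanned 28 to 35.1 and 24.3 to 34.6 CPM, *E2f4* 88.7 to 92.4 and 85.9 to 102 CPM, *E2f5* 6.47 to 7.68 and 6.12 to 6.72 CPM, and *E2f6* 21.9 to 27.1 and 22.4 to 26.3 CPM. *Rb1* spanned 69.8 to 77.2 CPM in WT and 68.8 to 72.9 CPM in DKO, and *Rbl1* 71.2 to 83.2 and 76.0 to 91.6 CPM.

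Whether the genotype effect differed between the cell types was tested as an interaction. *E2f1* was the only member called in mLNs (adjusted p of at most 0.05, with no fold change minimum), where 0.28% of all genes were called. Its DKO effect in Treg cells exceeded that in CD4+Foxp3- cells by 1.45 ± 0.19 log2 (adjusted p = 0.00812 with edgeR), and leaving out WT Treg replicate 2 brought it to 1.42 (adjusted p = 0.0501). The interaction was 1.0 ± 0.53 for *E2f7* (adjusted p = 0.543) and 0.91 ± 0.39 for *E2f8* (adjusted p = 0.419), so a difference between cell types was not shown for the atypical factors. *Rbl2* had an interaction of -0.49 ± 0.11 log2 (adjusted p = 0.0762, and 0.0419 with the block by animal).

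**Figure D3:**
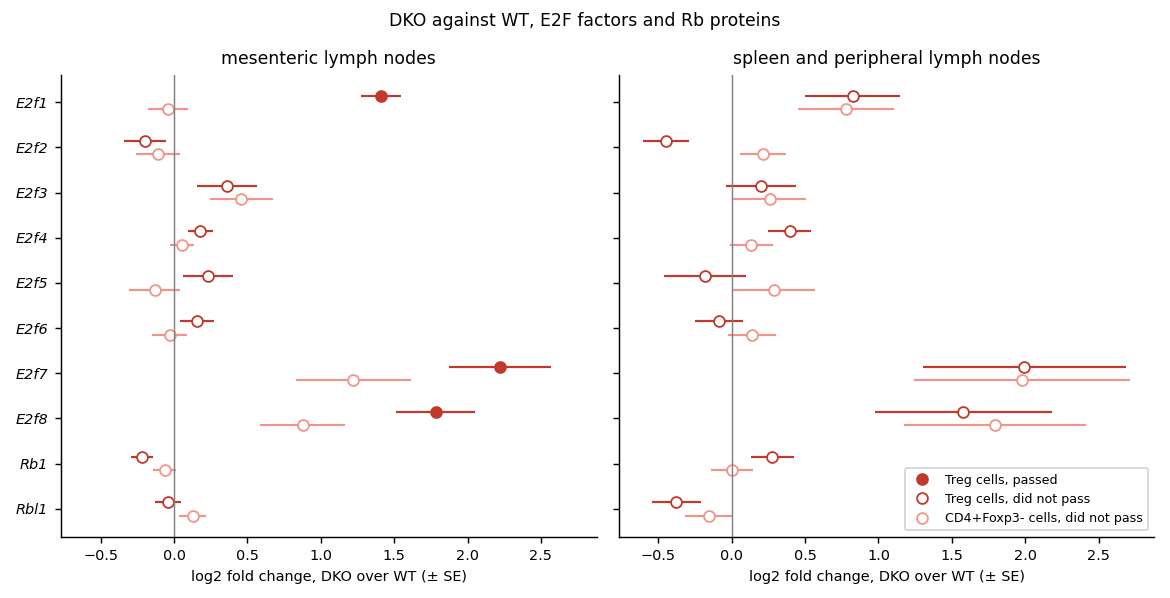
Log2 fold change of DKO over WT with its standard error (edgeR) for the 10 members, in Treg and CD4+Foxp3- cells, for mLNs and for spleen and pLNs. Filled points passed the test (fold change of 1.5 or more, adjusted p not above 0.05), which were E2f1, E2f7 and E2f8 in mLN Treg cells, and open points did not.

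Treg cells and CD4+Foxp3- cells were also compared within each genotype. In WT mLNs 4 of 10 members were called, all higher in Treg cells, where 10.1% of all genes were called and 6.91% upwards. These were *E2f2* (log2 difference 0.73 ± 0.15, adjusted p = 0.00517 with edgeR), *E2f3* (0.80 ± 0.21, adjusted p = 0.0228), *E2f8* (0.93 ± 0.29, adjusted p = 0.0467) and *Rb1* (0.64 ± 0.08, adjusted p = 0.000137). The count was 2 to 3 when single libraries were left out. *E2f7* had a difference of 1.0 ± 0.40 that did not pass (adjusted p = 0.118). *E2f3* and *E2f8* were each called in 8 of 14 alternative settings, *E2f2* in all 14 and *Rb1* in 13. *E2f1* did not pass the test.

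In DKO mLNs 5 of 10 members were called between the cell types, all higher in Treg cells, where 11.2% of all genes were called and 7.75% upwards. *E2f1* had a log2 difference of 1.54 ± 0.13 (adjusted p = 1.79e-05 with edgeR), *E2f7* of 2.0 ± 0.34 (adjusted p = 0.00145) and *E2f8* of 1.83 ± 0.27 (adjusted p = 0.000524). *E2f2* (0.64 ± 0.15, adjusted p = 0.00931) and *E2f3* (0.70 ± 0.21, adjusted p = 0.0335) were called as in WT. Of 14 alternative settings, *E2f2* was called in 12 and *E2f3* in 10, while *E2f1*, *E2f7* and *E2f8* were called in all 14. *Rb1* differed by 0.48 ± 0.08 (adjusted p = 0.000873), which was under the fold change minimum. *E2f4*, *E2f5*, *E2f6* and *Rbl1* were called in neither genotype.

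In spleen and pLNs, with 2 replicates a group, none of the 10 members was called between DKO and WT Treg cells with edgeR, where 1.74% of all genes were called. At an unadjusted p under 0.05 there were 6 members, beside 3345 of 16357 genes, and DESeq2 called 0 members. All 10 members were without overlap between the genotypes, but so were 54.2% of all genes, and 66.4% of those averaging at least 1 CPM, with groups of 2. The median log2 fold change was 0.24, against 0.018 over all genes.

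*E2f1* was at 7.22 and 6.40 CPM in WT and at 13.0 and 11.1 CPM in DKO Treg cells of spleen and pLNs, a log2 fold change of 0.82 ± 0.33 (adjusted p = 0.179 with edgeR). *E2f7* was at 0.692 and 0.626 CPM in WT and at 3.03 and 2.25 CPM in DKO, a log2 fold change of 1.99 ± 0.69 (adjusted p = 0.136). *E2f8* was at 2.15 and 1.74 CPM in WT and at 8.53 and 3.07 CPM in DKO, a log2 fold change of 1.58 ± 0.60 (adjusted p = 0.167). For these 3 genes both DKO libraries were above both WT libraries, and for *E2f8* replicate 1 was much higher than replicate 2.

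*E2f2* was at 72.3 and 84.5 CPM in WT and at 53.1 and 61.8 CPM in DKO Treg cells of spleen and pLNs, a log2 fold change of -0.45 ± 0.16 (adjusted p = 0.136 with edgeR). *E2f3* was at 11.9 and 11.3 CPM in WT and at 13.9 and 12.8 CPM in DKO (0.20 ± 0.24, adjusted p = 0.690). *E2f4* was at 67.4 and 67.1 CPM in WT and at 96.2 and 80.5 CPM in DKO (0.39 ± 0.14, adjusted p = 0.153). *E2f5* (-0.18 ± 0.28) and *E2f6* (-0.09 ± 0.16) stood slightly lower in DKO on CPM but higher on TPM. By the median gene, TPM set DKO Treg libraries 0.343 log2 higher relative to WT than CPM did, on the average of the replicates. The median TPM per CPM was 0.735 in DKO Treg replicate 1 and 0.573 in replicate 2, against 0.521 and 0.511 in WT.

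*Rb1* was at 64.1 and 62.6 CPM in WT and at 83.1 and 70.4 CPM in DKO Treg cells of spleen and pLNs, a log2 fold change of 0.28 ± 0.14 (adjusted p = 0.305 with edgeR). *Rbl1* was at 95.3 and 91.0 CPM in WT and at 62.7 and 80.8 CPM in DKO (-0.38 ± 0.17, adjusted p = 0.221). *Rbl2* was at 226 and 204 CPM in WT and at 143 in both DKO libraries (-0.59 ± 0.21, adjusted p = 0.150). *Rb1* thus lay above WT here and below WT in mLNs, and neither difference passed the test.

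In CD4+Foxp3- cells of spleen and pLNs the DKO replicates differed from each other more than the WT replicates for the members other than *E2f4* and *Rb1*. *E2f1* was at 5.92 and 5.79 CPM in WT and at 13.7 and 6.37 CPM in DKO replicates 1 and 2. *E2f7* was at 0.304 and 0.563 CPM in WT and at 2.83 and 0.593 CPM in DKO. *E2f8* was at 1.06 and 2.01 CPM in WT and at 8.10 and 2.52 CPM in DKO. For all 3 genes replicate 1 stood far above the WT libraries, and replicate 2 stood just above them. In the same library of replicate 1, summed Treg markers were at 707 CPM against 226 CPM in replicate 2 and 199 to 220 CPM in WT, and plasma cell markers at 206 CPM against 102 CPM in replicate 2 and 84.4 to 89.9 CPM in WT, and their part in these levels was not tested.

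None of the members was called between DKO and WT CD4+Foxp3- cells of spleen and pLNs with edgeR, where 0.819% of all genes were called. 3 members had an unadjusted p under 0.05, beside 2102 of 16357 genes, and DESeq2 called 0 members. The log2 fold changes were 0.78 ± 0.33 for *E2f1*, 1.98 ± 0.74 for *E2f7* and 1.79 ± 0.62 for *E2f8* (adjusted p = 0.337, 0.258 and 0.217). Without DKO CD4+Foxp3- replicate 2, 3 members were called, as were 2751 of 16357 genes. Without both libraries of DKO replicate 1 none of the members was called there, and in Treg cells *E2f1* and *E2f7* were called, as were 1283 of all genes. Each of these fits leaves a DKO arm with 1 library, whose spread was assumed to be that of the other groups.

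**Figure D4:**
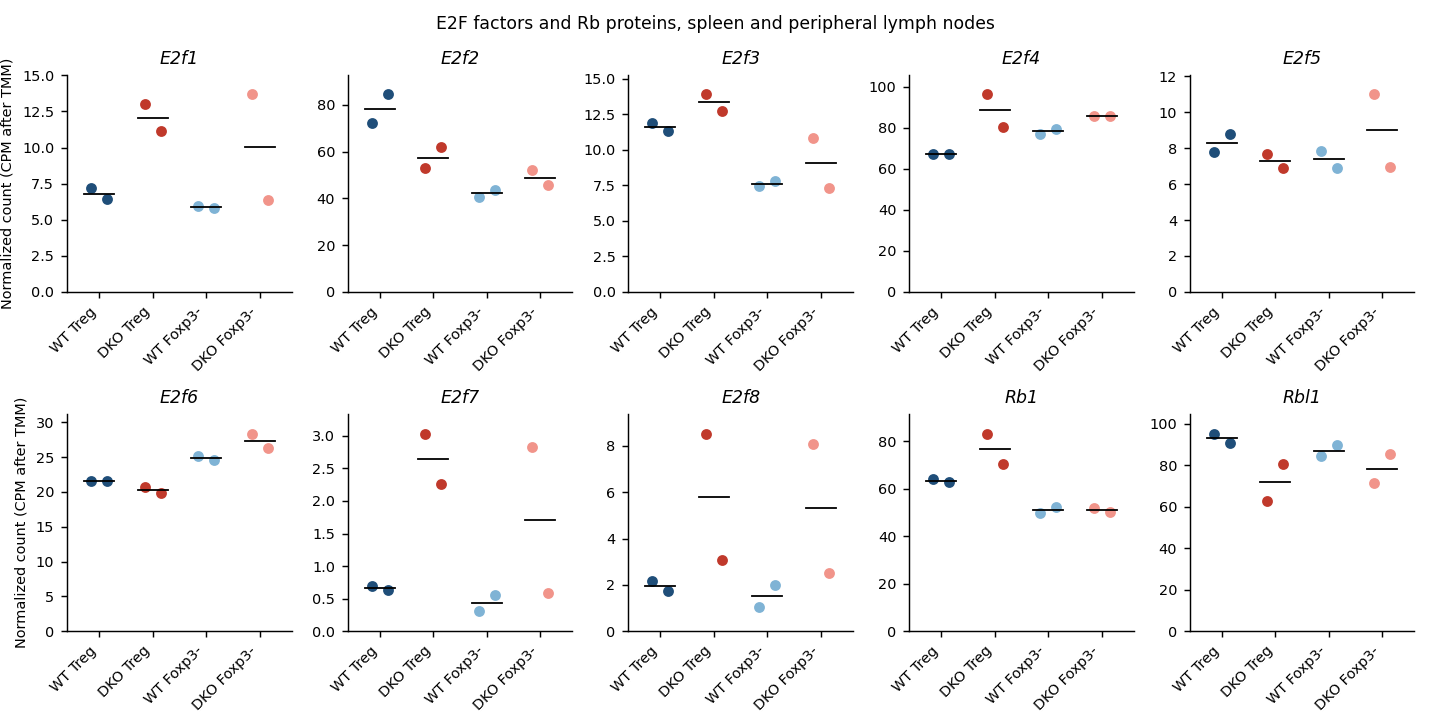
Normalized counts (CPM after TMM, linear axes from 0) of the 10 members in the 8 libraries of spleen and pLNs, 1 point per library and a line at the mean of the 2 replicates of each group. The DKO Foxp3- points of E2f1, E2f7 and E2f8 are far apart, with replicate 1 high and replicate 2 near the WT points.

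Between the cell types of spleen and pLNs, *E2f2* was the 1 member called in WT, where 4.0% of all genes were called. It stood at 40.6 and 43.6 CPM in CD4+Foxp3- cells, below both Treg libraries, with a log2 difference of 0.90 ± 0.16 (adjusted p = 0.00607 with edgeR). In DKO the 1 member called was *Rb1*, where 3.77% of all genes were called. *Rb1* was at 51.7 and 50.3 CPM in CD4+Foxp3- cells, a log2 difference of 0.59 ± 0.14 and a fold change of 1.504 (adjusted p = 0.0441). The count in DKO fell to 0 under some settings that kept all libraries, among them the block by animal. Leaving out a library leaves 1 in its group, so member counts from those fits are not given. With those fits included, 13 alternative settings gave log2 differences of 0.456 to 0.695 for *Rb1* in DKO. For *E2f2* in WT they gave 0.780 to 1.005.

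No member had a called interaction in spleen and pLNs with edgeR, where 0.00611% of all genes were called, which is 1 gene. 1 member had an unadjusted p under 0.05, beside 905 of 16357 genes, and DESeq2 called 0 members. That member was *E2f2* (-0.66 ± 0.22 log2, adjusted p = 0.902), whose DKO values were lower than WT in Treg cells and higher, with 52.0 and 45.6 CPM, in CD4+Foxp3- cells. The interaction of *E2f1* was 0.04 ± 0.46 log2 (adjusted p = 1) and ranged from -0.40 to 0.70 log2 as single libraries were left out. Whether the *E2f1* interaction differs between mLNs and spleen with pLNs was not tested, because the tables were made and normalized separately.

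The other genes of the pathway were described in lists put together with earlier results known. Of the dimer partners, *Tfdp1* was called higher in mLN DKO Treg cells (0.65 ± 0.10 log2, adjusted p = 0.000965 with edgeR) and *Tfdp2* was not. Where 8.5% of all genes were called upwards, of 8 cyclins and kinases that act on Rb proteins 3 were called higher and 0 lower, the kinase gene *Cdk6* (1.05 ± 0.26) and the cyclin E genes *Ccne1* (1.38 ± 0.18) and *Ccne2* (1.62 ± 0.33). Of 7 inhibitors of these kinases, 3 were called higher, *Cdkn2c* (1.03 ± 0.32), *Cdkn1a* (1.29 ± 0.29) and *Cdkn2a* (3.85 ± 0.85, on means of 0.1 CPM in WT and 1.4 CPM in DKO). Over each whole list the summed level was not higher in DKO Treg cells, at 848 to 934 CPM for the cyclins and kinases against 950 to 1000 CPM in WT, and at 165 to 187 CPM for the inhibitors against 180 to 198 CPM.

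Of 7 genes of the MuvB complex and its partners, the 2 called higher in mLN DKO Treg cells, beside the same 8.5% of all genes, were the cell-cycle transcription factor genes *Mybl2* (2.05 ± 0.20 log2) and *Foxm1* (1.57 ± 0.28), and none of the 5 MuvB core genes was called. Of 6 partners of E2F6 none was called, with log2 values of -0.24 ± 0.10 for *Max* and -0.40 ± 0.13 for *Mga*. Of the 4 germline genes that E2F6 is known to silence, only *Stag3* was listed with counts in mLNs, at means of 0.2 CPM in DKO and 0.1 CPM in WT Treg cells. Of 4 apoptotic E2F1 targets none was called, with 0.19 ± 0.10 for *Apaf1*.

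Of 30 G1/S targets, 22 were called higher and 0 lower in mLN DKO Treg cells, with a median log2 fold change of 1.0. The smallest called changes were those of *Gmnn* (0.61 ± 0.17), which encodes geminin, and *Mcm2* (0.65 ± 0.07), a subunit of the replicative helicase. The largest were those of *Orc1* (2.06 ± 0.31), of the origin recognition complex, and *Ccna2* (1.67 ± 0.19), which encodes cyclin A. Of 18 G2/M targets all 18 were called higher, with a median of 1.57. They ran from *Top2a* (1.11 ± 0.15), which encodes a topoisomerase, and *Kif11* (1.31 ± 0.18), a spindle motor, to *Cenpe* (2.14 ± 0.37) and *Mki67* (2.18 ± 0.24), which encodes the proliferation marker Ki-67. The shares called, 22 of 30 and 18 of 18, stood beside 8.5% of all genes called upwards in the same comparison.

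In mLN CD4+Foxp3- cells 6 of 30 G1/S targets and 10 of 18 G2/M targets were called higher in DKO and 0 lower, with medians of 0.33 and 0.89, beside 3.12% of all genes called upwards, where *E2f1* did not pass the test. Without any 1 of the 3 WT CD4+Foxp3- libraries these counts fell to 0 or 1 and to 0. All genes called fell in the same fits, from 575 to 69, 57 and 110. Summed Treg markers in these cells were at 177 to 348 CPM in DKO against 133 to 137 CPM in WT, with 2 of 5 called higher, and NK cell markers at 53.8 to 141 against 31.9 to 41.8 CPM, and their part was not tested. In the interaction, where 0.28% of all genes were called, 2 G1/S genes were called, *Mcm3* (0.72 ± 0.11 log2, adjusted p = 0.0151 with edgeR) and *Mcm5* (0.89 ± 0.16, adjusted p = 0.0448), and 0 of the G2/M genes. In spleen and pLNs 0 of 30 G1/S targets and 2 of 18 G2/M targets, *Mki67* (3.48 ± 0.72) and *Tpx2* (1.47 ± 0.33), were called in Treg cells, with medians of 0.64 and 1.16, and *Foxm1* (1.86 ± 0.36) and *Cdkn1a* (1.62 ± 0.34) were called too. In CD4+Foxp3- cells of spleen and pLNs 0 of both lists were called, with medians of 0.66 and 1.08, and without DKO CD4+Foxp3- replicate 2, which leaves 1 DKO library assumed to vary like the other groups, 23 of 30 and 15 of 18 were called, in a fit that called 2751 of all 16357 genes against 134 with both libraries. With DESeq2 the G1/S and G2/M counts were 2 and 6 for Treg cells, where all genes called rose from 285 to 648, and both were 3 for CD4+Foxp3- cells, where they rose from 134 to 376. Without both libraries of DKO replicate 1, where the lone DKO Treg library was assumed to vary like the other groups, 10 and 12 were called in Treg cells and 1283 of all genes against 285 with all libraries.

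The G1/S sum was 1662 to 1785 CPM in WT and 2701 to 3266 CPM in DKO Treg cells of mLNs, and 1391 to 1432 against 1571 to 1745 CPM in CD4+Foxp3- cells. The G2/M sum was 213 to 338 CPM in WT and 634 to 947 CPM in DKO Treg cells, and 122 to 143 against 213 to 284 CPM in CD4+Foxp3- cells. DKO CD4+Foxp3- cells of mLNs thus had target sums close to those of WT Treg cells.

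The correlation across libraries is a description, since the points share groups, depth and scaling. Over the 12 mLN libraries Pearson's r of log2 CPM between *E2f1* and the G1/S sum was 0.953, and with group means removed it was -0.074. For *E2f8* and the G2/M sum r was 0.970, and 0.627 with group means removed, where *E2f2* had 0.766 and *E2f4* 0.636, and for *E2f8* and the G1/S sum the latter was 0.368. The replicates of *E2f1* differed by less than counting error, so nothing is read from its value within groups. Over the 8 libraries of spleen and pLNs the values for *E2f1* and the G1/S sum were 0.989 and 0.996, where DKO CD4+Foxp3- replicates 1 and 2 lay farthest apart.

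**Figure D5:**
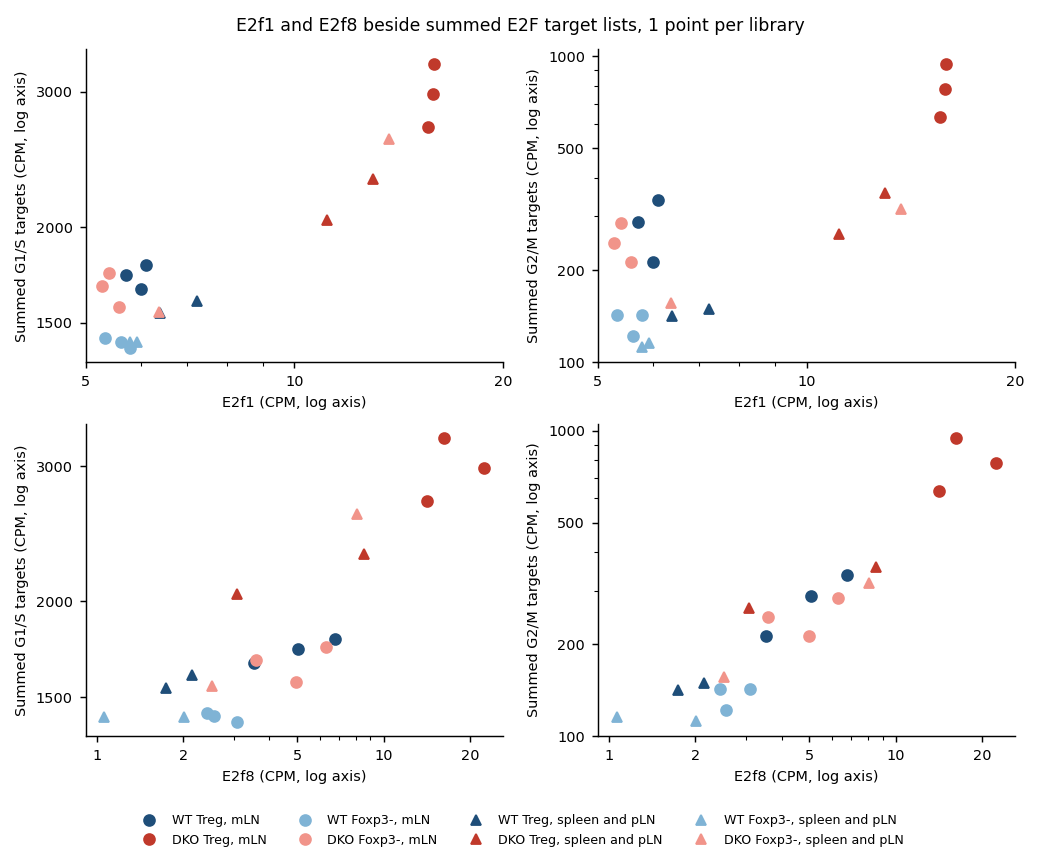
E2f1 (top) and E2f8 (bottom) in CPM against the summed CPM of the G1/S (left) and G2/M (right) target lists, all on log axes, 1 point per library, circles for mLNs and triangles for spleen and pLNs. The 3 mLN DKO Treg libraries lie at the upper right in each panel, and mLN DKO Foxp3- libraries have higher sums than WT Foxp3- libraries at the same E2f1 level.

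The genes with the pattern most like each member over the 12 mLN libraries were ranked by r of log2 CPM among genes averaging 5 CPM or more, for members averaging 3 CPM or more. For *E2f1* they were *Rfc2* (r = 0.979), *Mcm3* (0.974) and *Mcm5* (0.965), of the replication machinery, and their r within groups was 0.199, 0.074 and 0.523. For *E2f8* they were *Clspn* (0.990), *Cdc45* (0.986) and *Mki67* (0.982), with r within groups of 0.963, 0.897 and 0.829. For *Rb1* they were *Gm3002* (0.977), *Gpr83* (0.975) and *Il2ra* (0.968), which encodes CD25, with r within groups of 0.615, 0.485 and 0.309. *E2f2* ran with *Rragd* (0.951), *Swap70* (0.949) and *Lrrc57* (0.949), and *E2f3* with *Fbxw11* (0.965) and *Mtbp* (0.952). Of the genes named here, on log2 TPM *Rfc2* for *E2f1*, *Lrrc57* for *E2f2* and the 3 genes for *E2f8* stayed among the nearest 3 and the others did not.

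In the GENCODE M1 annotation of NCBIM37 (mm9), the members lie on 9 chromosomes. *E2f1* (chr2:154385143-154395628, minus strand) and *Rbl1* (chr2:156971629-157030270, minus strand) share chromosome 2. *E2f7* lies at chr10:110182495-110224440 on the plus strand and *E2f8* at chr7:56121799-56136966 on the minus strand. *E2f2* lies at chr4:135728309-135751972, *E2f4* at chr8:107821563-107829269, *E2f5* at chr3:14578671-14606308 and *E2f6* at chr12:16817771-16833549, all on the plus strand, and *E2f3* at chr13:29998444-30077537 on the minus strand. *Rb1* is the longest of the 10 genes, at chr14:73583480-73725629 on the minus strand.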

How the data were processed

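Members and gene lists were chosen with earlier results of these data known. The authors aligned single-end reads to mm9 with TopHat2 2.1.1, allowing 1 alignment per read, and counted them by strand on RefSeq genes with featureCounts (Subread 1.4.3-p1). The deposited counts are raw, and the deposited TPM were computed by the authors in a way not given in the sources used here. There were 0 count columns without a sample. Counts of each tissue were scaled with TMM and fitted with edgeR 4.0.16 (limma 3.58.1, R 4.3.3) over 4 groups, genes with a total of at least 1 count entering (16784 in mLNs, 16357 in spleen and pLNs), with p-values adjusted by Benjamini-Hochberg over all of them. DESeq2 1.42.0 served as an alternative, where the study itself used DESeq2. Log2 CPM used a prior count of 2. The biological variation was 17.7% in mLNs and 21.6% in spleen and pLNs. Tested on simulated counts for DKO against WT Treg cells, the fit recovered 78 of 100 genes changed 2-fold and 99 of 100 changed 4-fold among 16353 genes for mLNs, and 49 and 96 of 100 among 15812 for spleen and pLNs.

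All members were named. Of the other lists up to 4 genes per comparison were named, the called genes with the largest and smallest changes, or the 2 with the highest level where none was called. 1 gene that this rule names is not reported here. Replicate numbers were taken from the labels. In mLNs, Treg and CD4+Foxp3- libraries of the same genotype and number deviated together (r of 0.145 to 0.518 over 9475 genes), so the numbers paired cell types within a genotype and a block by animal was fitted for those contrasts. Between genotypes they did not (r of -0.114 to 0.182). In spleen and pLNs, with 2 numbers, libraries of the same number had r of 0.282 to 0.311 within and 0.202 to 0.303 between genotypes, which does not establish pairs. SE, SD and p-values cover the spread between these libraries and not other mice. Promoters are from RefSeq (GRCm38.p6), positions from NCBIM37.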

Additional observations from a re-analysis of the deposited data

Results flagged for a closer look

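*E2f1* in mLNs was set apart because its genotype effect differed between the cell types by a test of that difference. The DKO effect in Treg cells exceeded that in CD4+Foxp3- cells by 1.45 log2 (edgeR's quasi-likelihood interaction, adjusted p = 0.00812), with all 3 DKO Treg libraries above all WT Treg libraries and overlapping CD4+Foxp3- libraries. Without WT Treg replicate 2 it was 1.42 log2 (adjusted p = 0.0501).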

How the results depend on the processing

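Alternatives were DESeq2's size factors or Wald test, edgeR's filterByExpr, a robust prior, no fold change minimum, blocks by replicate number or by animal, each library left out, and, added after seeing the data, a length correction and leaving out both libraries of DKO replicate 1. Directions were compared for all members and *Rbl2* between DKO and WT Treg cells, and for a chosen part of them in the other contrasts. Of these log2 fold changes, the *E2f1* interaction in spleen and pLNs changed direction, with -0.40 to 0.70 as single libraries were left out. No other of these did, and the log2 fold changes outside this choice were not compared. A lone library left in a group was assumed to vary like the other groups. *E2f1*, *E2f7* and *E2f8* were called in mLN Treg cells under all 13 settings, with log2 ranges of 1.38 to 1.43, 2.06 to 2.41 and 1.57 to 2.03. The other counts of called members moved as follows, with the cause not tested. In mLNs, DKO against WT CD4+Foxp3- cells gave 1 with the replicate block and 0 to 1 with single libraries left out. The call with a library left out came where 1453 of all genes were called, against 575 with all libraries. WT Treg against CD4+Foxp3- cells gave 2 with the length correction and 2 to 3 with libraries left out, and the interaction gave 0 to 1. In spleen and pLNs, DKO Treg against CD4+Foxp3- cells gave 0 with DESeq2's size factors, the Wald test, both blocks, the robust prior and the length correction. Counts there also moved in some fits without single libraries or without both libraries of DKO replicate 1. Those fits leave 1 library in a group, and all genes called moved in them too, so those counts of members are not listed here. The replicate block changed no other count of members beyond 1.5 times.

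Of the target lists, G1/S and G2/M counts in mLN Treg cells stayed within 1.5 times. In mLN CD4+Foxp3- cells they ranged 0 to 7 and 0 to 13 with libraries left out, where all genes called ranged from 57 to 1453. Between WT cell types the G1/S count was 20 without a fold change minimum and the G2/M count ranged 7 to 14. In spleen and pLN Treg cells G1/S gave 2 with the Wald test, 2 with the replicate block, 10 without DKO replicate 1 and 0 to 4 with libraries left out. G2/M there gave 6 with the Wald test, 0 with filterByExpr and the robust prior, 1 with the length correction, 12 without DKO replicate 1 and 0 to 5 with libraries left out. In CD4+Foxp3- cells there, the Wald test gave 3 for each list, leaving out DKO replicate 1 gave 1 for G2/M, and libraries left out gave 0 to 23 and 0 to 15. Ranked by CPM instead of TPM, 5 of 10 members in mLN WT Treg cells and 4 of 10 in spleen and pLNs kept their place.

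In simulated counts for spleen and pLNs, 49 of 100 genes changed 2-fold were recovered, against 78 of 100 for mLNs, so a missing call there does not show that levels were alike. The changed genes were drawn above a minimum mean CPM that *E2f7* does not reach, and all groups were given the same spread. The rates therefore do not carry over to *E2f7* or to groups whose replicates lay far apart. Depth itself was not varied.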
